A study of Mus musculus with 8 samples.

Results

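The histone genes described here encode the replication-dependent forms of H2A and H2B. They were taken as all rows of the count table whose symbol begins with Hist, a cluster number from 1 to 4 and h2a or h2b. This rule used the symbol and no measured value, and it found 37 of 23107 genes, 18 of them H2A and 19 H2B. RNA recovered with an antibody against DCP1A, a co-activator of mRNA decapping found in cytoplasmic processing bodies, was compared with input RNA of mouse ovarian cortex at postnatal day 8. Each group held 4 libraries of total RNA, numbered 1 to 4, made with a kit for small inputs. The study asked which RNAs are bound by DCP1A in primary oocytes. The tissue was a mixture of cells and not isolated oocytes, no treatment is named in the labels, and the sources used here give neither strain, genotype, number of animals nor pooling. If the libraries do not come from separate animals, the p-values measure technical spread only. Control-antibody RNA was not analysed here, which leaves unspecific recovery unmeasured.

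H2A and H2B form dimers that flank the H3-H4 tetramer in the nucleosome, and each family is encoded by many nearly identical genes in clusters. Their mRNAs are made in S phase, and most end in a stem-loop bound by SLBP in place of a poly(A) tail. When replication stops these mRNAs are rapidly degraded, a process in which UPF1, added uridines, the LSM1-7 ring, decapping and the exosome take part. In the ovary of young mice the oocytes are arrested in meiotic prophase, while granulosa cells of growing follicles divide.

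The sequences below show how alike members are at the start of their coding sequence and in the promoter regions they share. Of the 37 rows, 36 matched exactly 1 gene of the RefSeq table of GRCm38.p6, the patch release of mm10, all through older synonyms. The table places 27 of them on chromosome 13, 6 on chromosome 3 and 3 on chromosome 11. An annotated span of at most 1000 bp was found for 30 of the rows and a longer one for 6. Coding starts were found by searching the 50 bases after the annotated start for atgtctgg in H2A and for atgcc, any base and gag in H2B. With this search, 7 H2A and 9 H2B genes held at least 14 bases of coding sequence. The fixed letters of the search are therefore the same in all genes listed. The first 14 coding bases, with letters that differ from the commonest version of the family in capitals, are these for 4 H2A and 4 H2B genes, including the testis-type genes Hist1h2aa and Hist1h2ba.
Hist1h2ag: atgtctggacgcgg
Hist1h2an: atgtctggacgcgg
Hist2h2ac: atgtctggCcgTgg
Hist1h2aa: atgtctggTcCTAC
Hist1h2bj: atgcctgagcctgc
Hist1h2bg: atgccCgagcctgc
Hist1h2be: atgcctgagccAgc
Hist1h2ba: atgccGgagGTGgc

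Few letters separated the usual members in this stretch, part of which was alike through the search itself. The commonest H2A version was shared by 4 genes and the commonest H2B version by 4. The testis-type genes differed from them at 5 positions for Hist1h2aa and at 4 for Hist1h2ba. How the counting divided reads that fit several copies is not stated in these sources, and 5 of the 37 rows held values that are not whole, among them the near-copies Hist2h2aa1 and Hist2h2aa2.

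Among the 33 genes with a strand in the RefSeq promoter records, H2A and H2B genes lie back to back in 9 pairs. The pairs have 164 to 281 bp between their starts, so that both genes share 1 promoter region. No strand was held for Hist1h2bc and Hist2h2be, neighbours of Hist1h2ac and Hist2h2ac, so they could not enter a pair. The pair Hist1h2ag and Hist1h2bj is shown because it holds the second-highest H2A and the highest H2B fold change of the tested rows, and because the upstream windows of 250 bases of its genes share a run of 248 bases in opposite orientation. Hist2h2bb is shown because it had the highest level of all 37 rows. Capitals mark the CCAAT box, the TATA box searched as TATAAA and the octamer ATTTGCAT, the last known as a site of OCT1 in H2B promoters, each searched on both strands. No base belonged to more than 1 match in these windows.
Hist1h2ag, chr13:22042950-22043199, minus strand: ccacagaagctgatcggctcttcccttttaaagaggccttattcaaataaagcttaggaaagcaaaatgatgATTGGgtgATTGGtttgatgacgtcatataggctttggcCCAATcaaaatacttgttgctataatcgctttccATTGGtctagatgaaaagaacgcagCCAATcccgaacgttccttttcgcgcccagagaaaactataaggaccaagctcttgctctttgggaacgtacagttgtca
Hist2h2bb, chr3:96269450-96269699, plus strand: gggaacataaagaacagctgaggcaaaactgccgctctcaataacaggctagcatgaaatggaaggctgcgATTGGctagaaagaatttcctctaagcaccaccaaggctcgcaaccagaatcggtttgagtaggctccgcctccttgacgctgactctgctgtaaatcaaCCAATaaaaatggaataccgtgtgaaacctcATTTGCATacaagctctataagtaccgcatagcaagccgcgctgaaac

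CCAAT was present in all 17 H2A and all 17 H2B windows that the RefSeq promoter table held, against 33.8% of its 32851 windows. The octamer was present in 41.2% of the H2A and 41.2% of the H2B windows, against 1.6% of all windows. TATAAA was present in 41.2% of the H2A and 47.1% of the H2B windows, against 12.4% of all. A match on either strand counted, and back-to-back genes share much of their windows, so 1 match can count for both families. These matches are descriptions of letters and not measured sites. The median log2 fold change of RIP over input was 0.59 in the 14 tested genes with the octamer and 0.68 in the 13 tested genes without it.

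Depth ranged from 13098154 to 25757620 counts per library, with inputs 3 and 4 the deepest. Levels below are in CPM, counts relative to the library total, normalized by trimmed mean of M values (TMM), with mean ± SD over 4 libraries. Oocyte markers (10 of 10 tested) summed to 1510 to 2125 CPM in input and 1355 to 1836 CPM in RIP. Granulosa markers (8 of 8) summed to 991 to 2394 and 1243 to 2083 CPM, and stromal markers (7 of 7) to 4081 to 6623 and 4306 to 7982 CPM. As sums, the defining markers of the labelled tissue were therefore present in both groups. Single markers were low, such as Oosp1, with means of 1.98 CPM in input and 3.16 CPM in RIP. Inhba (2.2 and 1.45 CPM) and Fshr (2.13 and 1.71 CPM) were low as well. Endothelial markers (4 of 4) summed to 49.9 to 100.6 CPM in input and 69.9 to 101.2 CPM in RIP, surface epithelium markers (3 of 5 tested) to 51.0 to 86.7 and 54.5 to 156.0 CPM, and erythroid markers (1 of 5) to 19.3 to 55.4 and 21.9 to 44.7 CPM. Leukocyte markers (2 of 4 tested) summed to 9.61 to 16.3 CPM in input and 17.2 to 30.1 CPM in RIP, so these groups did not overlap. Each sum runs over all listed markers with a row in the count table, tested or not. These were 3 of the leukocyte, 3 of the erythroid and 5 of the surface epithelium markers. No marker that was analysed was at 0 in all libraries. The part of leukocyte RNA in the histone levels was not tested. In bulk tissue, fewer cells of a type and less RNA per cell cannot be told apart.

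Summed over all rows, H2A and H2B mRNA had a higher mean in the DCP1A RIP than in input, with overlapping groups. The 18 H2A rows summed to 584, 640, 278 and 244 CPM in inputs 1 to 4 and to 1030.2, 715, 591 and 435 CPM in RIP 1 to 4. The 19 H2B rows summed to 545, 826, 289 and 313 CPM in the inputs and to 996, 884, 712 and 471 CPM in the RIP libraries. In both families RIP 1 and RIP 2 lay above every input, while RIP 4 lay below inputs 1 and 2. Inputs 3 and 4 were the lowest libraries of each family.

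**Figure D1:**
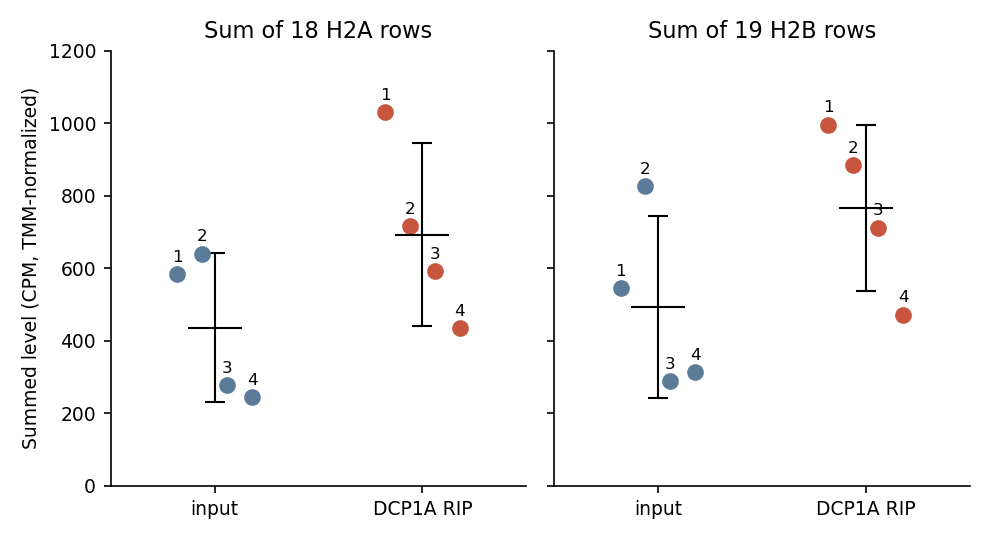
Summed level of the 18 H2A rows (left) and 19 H2B rows (right) in CPM on a linear axis from 0, for 4 input and 4 RIP libraries. Points are libraries with their replicate number, and bars give the mean and SD. RIP 1 and RIP 2 sit above every input, and inputs 3 and 4 sit lowest.

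The H2A sum averaged 436 ± 205 CPM over the inputs and 693 ± 252 CPM over the RIP libraries, a difference of 0.73 ± 0.44 (SE) in mean log2 CPM. The H2B sum was 493 ± 250 and 766 ± 229 CPM, a difference of 0.72 ± 0.43. As the sums run over a chosen list, they are given with no test. Taken within each replicate number, the log2 difference of H2A was 0.82, 0.16, 1.09 and 0.83 for numbers 1 to 4, and that of H2B was 0.87, 0.10, 1.30 and 0.59. All of these differences were above 0, and number 2 had the smallest in both families. Before scaling, inputs 1 to 4 held 13428, 17272, 16623 and 15271 counts of H2A and H2B together, and totals of 13098154, 13142790, 25757620 and 25030604 counts. The DNA replication genes described below held 21126, 24128, 56581 and 51756 counts in the same libraries, more in the deeper ones.

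The proportion of the families to each other, a quantity that no scaling alters, overlapped between the groups. The ratio of H2A to H2B counts was 1.07, 0.775, 0.961 and 0.780 in inputs 1 to 4 and 1.03, 0.810, 0.831 and 0.923 in RIP 1 to 4. The means were 0.897 ± 0.145 and 0.899 ± 0.102, closer to each other than the spread between libraries. A few rows made up most of each family. Hist2h2ac, Hist3h2a and Hist1h2ak together gave 59.6 ± 2.1% of H2A counts in input and 60.1 ± 4.5% in RIP. Hist2h2bb alone gave 46.6 ± 7.5% of H2B counts in input and 45 ± 4.9% in RIP. Hist2h2ab took 9.56 ± 2.28% of H2A counts in input and 5.15 ± 0.92% in RIP.

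Of the 37 rows, 29 passed the filter on low counts, 13 H2A and 16 H2B. None of them passed RIP against input by edgeR's quasi-likelihood test at an adjusted p under 0.05, and the lowest adjusted p was 0.622. Over the 14667 genes tested, 0 (0%) were called higher and 6 (0.0409%) lower. By DESeq2 and by limma voom with sample weights 0 members passed as well. A fold change above 0 was found for 26 of the 29 members, 12 H2A and 14 H2B, against 48.3% of all genes tested. Their median log2 fold change was 0.61, with a range of -0.78 to 1.27, and that of all genes tested was -0.02. At an unadjusted p under 0.05, 5 members were higher and 0 lower, where 3.15% of all genes were higher and 4.28% lower. With DESeq2 7 members were higher, where 3.70% of all genes were, and with limma voom 16, where 4.34% were. Only for Hist1h2ac did all RIP libraries lie above all inputs, and for 0 members all below, where 2.77% of all genes lay above and 2.52% below. These counts are over the rows that passed the filter and leave out 8 of the 37.

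**Figure D2:**
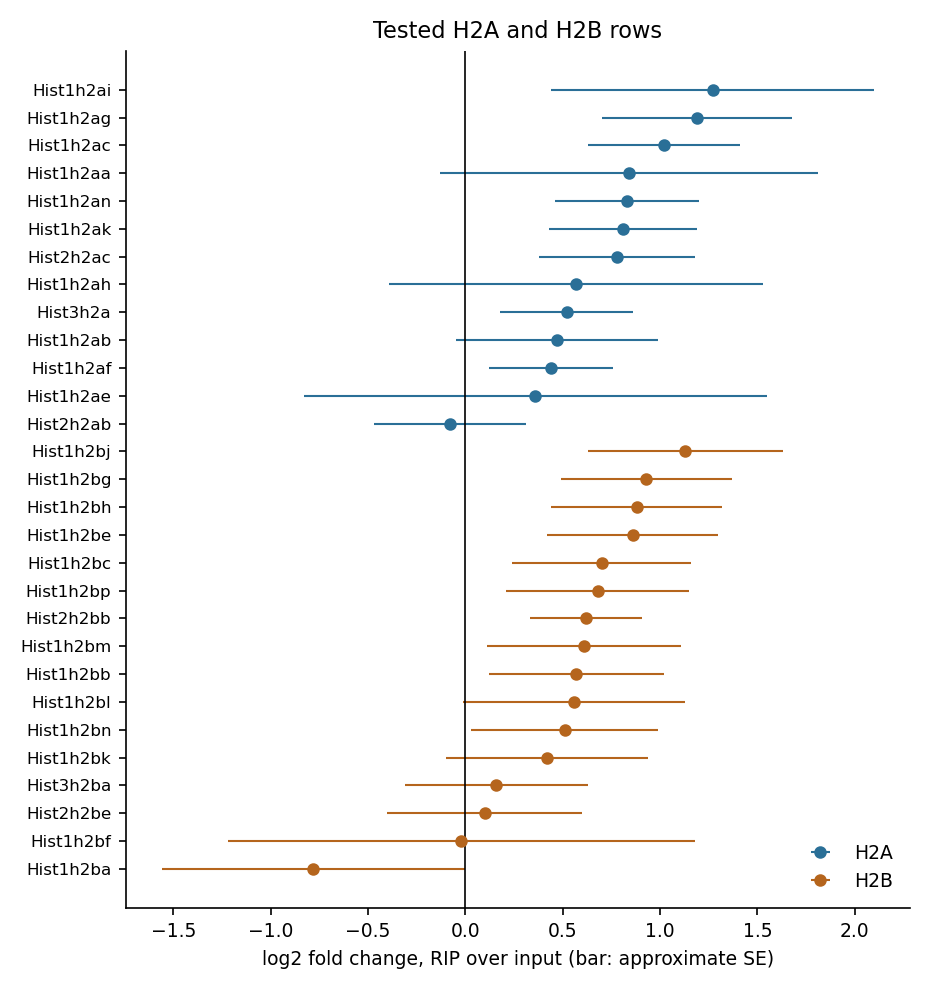
Log2 fold change of RIP over input for each of the 29 tested rows, with its approximate standard error as a bar, H2A above and H2B below. 26 of the points lie to the right of 0, from 1.27 for Hist1h2ai down to -0.78 for Hist1h2ba.

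The members' count at an unadjusted p under 0.05 depended on single libraries. The share of all genes that were higher at that p moved as well. The count was 1 without RIP 1 (1.44% of all genes), 1 without RIP 2 (1.98%), 1 without input 4 (4.01%) and 2 without input 3 (2.93%). It was 15 without input 2 (5.04% of all genes) and 12 without RIP 4 (3.51%). The median log2 fold change was 0.38 without RIP 1 and 0.94 without input 2. In each of the 8 fits without 1 library the median was above 0 and no member passed. With the replicate number as a block, 13 members were higher at an unadjusted p under 0.05, where 6.64% of all genes were, and again none passed (lowest adjusted p = 0.0747, for Hist1h2ac).

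Among the H2A genes, Hist2h2ac, Hist3h2a and Hist1h2ak had the highest levels. Hist2h2ac lies on chromosome 3 (96220413 to 96220880), is annotated as protein-coding over 468 bp, and had 138, 159, 47.3 and 53.4 CPM in inputs 1 to 4. In RIP 1 to 4 it had 274, 170, 143 and 94.3 CPM. RIP 1 and RIP 2 were above all inputs, and RIP 4 was below inputs 1 and 2 (log2 0.78 ± 0.40, edgeR adjusted p = 0.693). Hist3h2a, on chromosome 11 (58954685 to 58955192), lies in a small separate cluster and overlaps the annotated gene Trim17, so its reads cannot be told apart from those of Trim17. It had 125, 115, 72.1 and 58.8 CPM in the inputs and 215, 126, 122 and 69.1 CPM in the RIP libraries. The groups overlapped, with RIP 4 below inputs 1 to 3 (0.52 ± 0.34, adjusted p = 0.747 by edgeR). Hist1h2ak, on chromosome 13 (21753377 to 21753912), had 103, 98.2, 44.7 and 30.5 CPM in the inputs and 176, 143, 93.8 and 70.8 CPM in the RIP libraries. RIP 1 and RIP 2 were above all inputs, and RIP 3 and RIP 4 were above inputs 3 and 4 only (0.81 ± 0.38, adjusted p = 0.675 by edgeR).

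Hist1h2ac was the member whose groups did not overlap. It lies on chromosome 13 (23683473 to 23683959) and had 47.5, 48.7, 13.9 and 19.4 CPM in the inputs. In RIP 1 to 4 it had 93.4, 57.8, 51.0 and 58.9 CPM. The lowest RIP library, at 51.0 CPM, stood just above the highest input, at 48.7 CPM. The means were 32.3 ± 18.3 and 65.3 ± 19.1 CPM (log2 1.02 ± 0.39, edgeR adjusted p = 0.622), and its share of H2A counts was 7.17 ± 1.47% in input and 9.83 ± 2.52% in RIP. The adjusted p over the fits tried ran from 0.0584, with the number groups as a block, to 1.

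Hist1h2ag, whose shared promoter is printed above, was a lower row with a like difference. It had 11, 8.15, 4.87 and 2.62 CPM in the inputs and 16.2, 19.5, 11 and 13.7 CPM in the RIP libraries, and RIP 1, 2 and 4 lay above every input (log2 1.19 ± 0.49, edgeR adjusted p = 0.625). Hist1h2an, on chromosome 13 (21786774 to 21787248), had 50.3, 34, 23.9 and 13 CPM in the inputs and 66.6, 57.6, 55.6 and 35.7 CPM in the RIP libraries. Here RIP 1, 2 and 3 lay above every input, and RIP 4 below input 1 (0.83 ± 0.37, adjusted p = 0.654 by edgeR). Hist1h2af had 44.3, 67.2, 33.7 and 23.2 CPM in the inputs and 65.5, 65.2, 53.2 and 44.9 CPM in the RIP libraries. No RIP library exceeded input 2 (0.44 ± 0.32, adjusted p = 0.772 by edgeR).

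Hist2h2ab was the H2A row with a fold change below 0. It had 37.8, 62.4, 27.9 and 29.2 CPM in the inputs and 64.8, 34.5, 31.8 and 17.9 CPM in the RIP libraries, with RIP 4 the lowest of all 8 libraries (log2 -0.08 ± 0.39, edgeR adjusted p = 0.973). Hist2h2ab lies beside Hist2h2ac on chromosome 3 (96219885 to 96220354), and the first 14 coding bases of these genes are the same. It lay outside the naming rule and was chosen after its values were seen, as were Hist1h2ai, Hist1h2bf and the untested rows named below. The other H2A rows tested, Hist1h2ab, Hist1h2ae, Hist1h2ah and Hist1h2ai, had means of 2.16 to 13.2 CPM in input and 2.99 to 18.3 CPM in RIP, with log2 fold changes of 0.36 to 1.27. The standard error of Hist1h2ai, the highest of them, was 0.83.

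**Figure D3:**
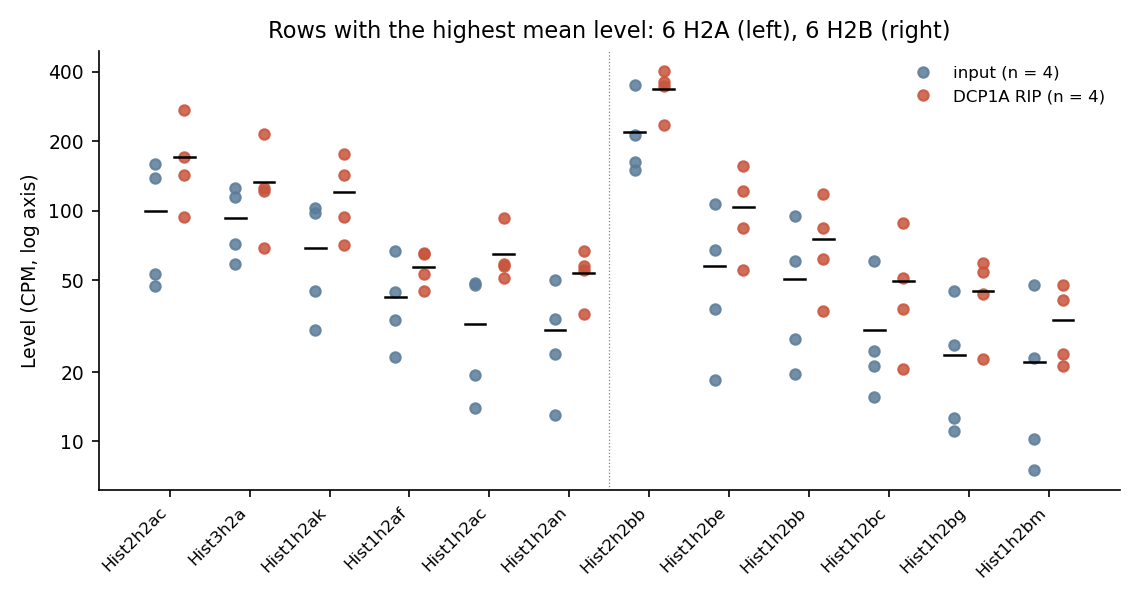
Level in CPM on a log axis for the 6 H2A rows and the 6 H2B rows with the highest mean over all libraries. Points are the 4 input and 4 RIP libraries, and the short lines are means. The groups overlap in every row except Hist1h2ac, and the RIP mean is the higher one in all 12.

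Among the H2B genes, Hist2h2bb had the highest level and, of the tested members, the smallest standard error. It lies on chromosome 3 (96269700 to 96270192) and had 213, 352, 163 and 151 CPM in the inputs and 405, 361, 347 and 235 CPM in the RIP libraries. RIP 1 and RIP 2 lay above all inputs, while RIP 4 lay above inputs 1, 3 and 4 (log2 0.62 ± 0.29, edgeR adjusted p = 0.669). Per kilobase of annotated span, Hist2h2bb reached 445 CPM among the inputs and 683 CPM among the RIP libraries, and Hist2h2ac 212 and 364 CPM. These 2 compact genes were the highest of their families per length as well. Hist1h2be had 67.3, 107.3, 18.5 and 37.6 CPM in the inputs and 121.3, 155.6, 84.1 and 55.5 CPM in the RIP libraries, with input 3 the lowest of all 8 libraries (0.86 ± 0.44, adjusted p = 0.693 by edgeR). Its annotated span of 37455 bp on chromosome 13 overlaps Gm33387, and its reads cannot be told apart from those of that gene.

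Hist1h2bb had 60.4, 94.8, 19.6 and 27.9 CPM in the inputs and 119, 84.0, 61.6 and 36.7 CPM in the RIP libraries. Only RIP 1 exceeded input 2 (log2 0.57 ± 0.45, edgeR adjusted p = 0.798). Hist1h2bc, with an annotated span of 8282 bp, had 24.7, 60.3, 15.6 and 21.3 CPM in the inputs and 88.1, 51.2, 37.5 and 20.7 CPM in the RIP libraries. RIP 1 exceeded all inputs and RIP 4 exceeded input 3 alone (0.70 ± 0.46, adjusted p = 0.751 by edgeR). Hist1h2bg had 26.3, 44.9, 12.6 and 11.1 CPM in the inputs and 54.4, 59.4, 43.4 and 22.8 CPM in the RIP libraries, where RIP 1 and RIP 2 exceeded all inputs (0.93 ± 0.44, adjusted p = 0.675 by edgeR). Hist1h2bm had 22.9, 47.5, 10.3 and 7.51 CPM in the inputs and 47.8, 41.2, 23.9 and 21.2 CPM in the RIP libraries, and RIP 4 lay below input 1 (0.61 ± 0.50, adjusted p = 0.801 by edgeR).

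The 2 lower H2B rows named by their p were Hist1h2bj and Hist1h2bh. Hist1h2bj, the partner of Hist1h2ag, had 8.66, 15.2, 6.57 and 4.77 CPM in the inputs and 34.5, 19.6, 14.4 and 8.27 CPM in the RIP libraries. RIP 1 and RIP 2 exceeded all inputs, and the RIP values spanned more than the inputs did (log2 1.13 ± 0.50, edgeR adjusted p = 0.652). Hist1h2bh had 10.1, 8.24, 5.11 and 6.52 CPM in the inputs and 13, 18.4, 14.9 and 8.70 CPM in the RIP libraries, with RIP 1, 2 and 3 above every input (0.88 ± 0.44, adjusted p = 0.686 by edgeR). The 7 other usual H2B rows tested, from Hist1h2bf at 2.62 CPM to Hist1h2bk at 16.7 CPM in input, had log2 fold changes of -0.02 to 0.68.

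The testis-type pair, whose coding starts differ most from the rest, had fold changes of opposite sign, and that of Hist1h2ba was above 0 with limma voom (log2 0.75) and within numbers 3 and 4 (1.40). Hist1h2aa had 1.01, 8.07, 3.34 and 0.146 CPM in the inputs and 11.6, 3.86, 4.5 and 2.42 CPM in the RIP libraries (log2 0.84 ± 0.97, edgeR adjusted p = 0.861). Hist1h2ba had 21.3, 13.1, 0.545 and 3.57 CPM in the inputs and 4.95, 6.47, 7.22 and 3.66 CPM in the RIP libraries (-0.78 ± 0.78, adjusted p = 0.843 by edgeR). Inputs 1 and 2 held more of Hist1h2ba than every RIP library, and inputs 3 and 4 held less. Both genes overlap the annotated gene Gm33516. Testis-type H2A and H2B are known from male germ cells and from oocytes.

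Of the 9 back-to-back pairs found, 7 had both genes tested, and in 6 of them both fold changes had the same sign. The exception was Hist1h2aa and Hist1h2ba. The values were 1.19 and 1.13 for Hist1h2ag and Hist1h2bj, 0.83 and 0.68 for Hist1h2an and Hist1h2bp, and 0.81 and 0.51 for Hist1h2ak and Hist1h2bn. Since 26 of 29 members had a fold change above 0, most pairs share a sign by count alone. Hist1h2bc (0.70) and Hist2h2be (0.10), next to Hist1h2ac (1.02) and Hist2h2ac (0.78), had no strand held and are not in these counts. Compact rows had a median of 0.57 over 25 tested, and the 4 tested rows with a longer annotated span, Hist1h2bc, Hist1h2be, Hist1h2bp and Hist2h2be, had a median of 0.69. By cluster the median was 0.68 over 23 rows on chromosome 13, 0.36 over 4 on chromosome 3 and 0.34 over 2 on chromosome 11. Other protein-coding genes with a span of at most 1000 bp had a median of 0.20 over 30 tested, 19 of them above 0. Their log2 fold changes ran from -7.68 to 3.18. By edgeR 0 of them were called higher and 1 lower, where 0% and 0.0409% of all genes tested were.

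Among the 8 rows that were not tested, Hist1h2ad had 0 counts in all 8 libraries, which allows up to 3 counts per library. Hist1h2ao, Hist1h2ap, Hist1h2bq, Hist1h2br and the pseudogene row Hist3h2bb-ps had no library above 30 counts. The upstream windows of Hist1h2bq and Hist1h2br are identical over all 250 bases. Whether reads of these copies can be told apart was not tested. Hist2h2aa1 had 0 counts in every input and 92, 91, 0 and 17.7 counts in RIP 1 to 4. Summed with its near-copy Hist2h2aa2, the counts were 0, 23, 4 and 0 in the inputs and 92, 97, 29 and 43 in the RIP libraries. In CPM these groups overlapped, since Hist2h2aa2 had 1.95 CPM in input 2 but 1.36 CPM in RIP 3, where Hist2h2aa1 had 0 counts. The windows upstream of these copies share a run of 169 bases.

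The members' median fold change was higher in libraries numbered 3 and 4 than in those numbered 1 and 2. Within numbers 1 and 2, 25 of 30 members tested had a fold change above 0, against 51.0% of all genes, with a median of 0.53. Within numbers 3 and 4 it was 29 of 31, against 48.5% of all genes, with a median of 1.23. No member passed in either set, and the difference between the sets was not tested. The summed log2 difference was 0.49 and 0.96 for H2A, and 0.48 and 0.95 for H2B, in numbers 1 and 2 and in numbers 3 and 4. Of the 29 members, 23 were above 0 in both sets, and 22 had the higher fold change in numbers 3 and 4. The library with the lowest level was input 3 or input 4 for 26 of the 29, and the one with the highest level was RIP 1 or RIP 2 for 22. Whether the number sets differ in batch is not given in the labels, and the part of depth in these levels was not tested.

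**Figure D4:**
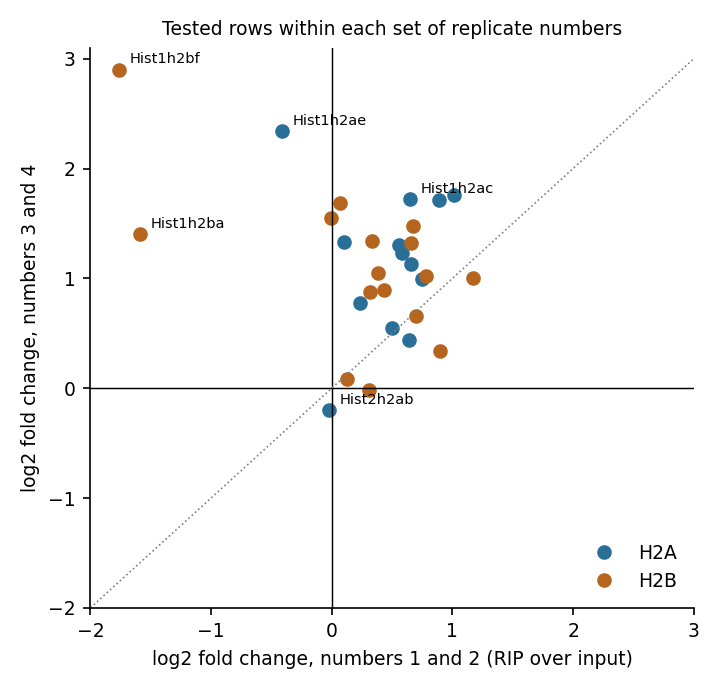
Log2 fold change of RIP over input for the 29 tested rows, within replicate numbers 1 and 2 (horizontal axis) and within numbers 3 and 4 (vertical axis). The dotted line marks equal values. 22 of the rows lie above it, and Hist1h2ba, Hist1h2bf, Hist1h2ae and, barely, Hist1h2bk have a value below 0 on the horizontal and above 0 on the vertical axis.

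Other replication-dependent histone rows had medians near those of H2A (0.78) and H2B (0.59). The median was 0.57 over 6 H1 rows, 0.53 over 11 H3 rows and 0.56 over 12 H4 rows tested, with 0 called in each. The count ratio of H2A and H2B together to H4 was 1.33 to 1.6 in input and 1.29 to 1.79 in RIP. The replacement H2A variants, in most cases not tied to S phase and made from mRNAs with poly(A) tails, had a median of -0.04 over 6 tested. H2afx had the highest of them (log2 0.56 ± 0.35), and H2afz, the H2A.Z gene, the lowest (-0.29 ± 0.30). Beside these variants, H2A and H2B together had count ratios of 2.53, 2.81, 1.40 and 1.37 in inputs 1 to 4 and 3.23, 3.29, 3.19 and 2.74 in RIP 1 to 4. RIP 1 to 3 lay above every input, RIP 4 lay below input 2 alone, and inputs 3 and 4 were the lowest.

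Genes of DNA replication and the cell cycle had a median log2 fold change of -0.03 over 32 tested, with 14 above 0. Their sum ranged from 1775 to 2049 CPM among the inputs and from 2038 to 2264 CPM among the RIP libraries. This was a narrower range within groups than that of the histones. The sum differed by 0.18 ± 0.05 (SE) in mean log2 CPM, and 3 RIP libraries lay above every input. Uhrf1 (log2 0.60 ± 0.22), the helicase subunit genes Mcm3 (0.67 ± 0.29) and Mcm2 (0.50 ± 0.27), and the chromatin assembly gene Chaf1a (0.46 ± 0.26) had the lowest p, and 0 of the list passed edgeR's test. Inputs 3 and 4, with 1927 and 1886 CPM of these genes, were not low in this sum as they were for H2A and H2B.

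Genes listed for histone mRNA processing, translation and decay, some of which have wider roles, had medians below 0. Of 13 tested genes listed for 3' end processing, which include the transcription gene Npat, 4 were above 0 and the median was -0.21. Casp8ap2 encodes FLASH of the processing complex and measured 32.6 ± 19.2 CPM among the inputs and 12.7 ± 5.8 CPM among the RIP libraries (log2 -1.35 ± 0.45). Sympk, the scaffold symplekin, was at 277 ± 51 and 423 ± 63 CPM (0.61 ± 0.23) with all RIP libraries above all inputs. Npat, a co-activator of histone transcription, differed by -0.76 ± 0.35 on the log2 scale, and the cleavage factor gene Cpsf2 by -0.46 ± 0.30. Of 17 tested genes for translation and decay of histone mRNAs, 4 were above 0 and the median was -0.15. Lsm5 of the LSM ring had the lowest p of this list, with 27.5 ± 14.7 and 11 ± 4.5 CPM (-1.31 ± 0.45) and overlapping groups. Upf1, the decay helicase, had the next lowest, with 190 ± 32 and 299 ± 51 CPM (0.65 ± 0.23) and groups that did not overlap. The translation factor gene Mif4gd (0.89 ± 0.45) and the decapping enzyme gene Dcp2 (-0.54 ± 0.28) came after them. In both lists 0 genes passed edgeR's test, with the lowest adjusted p at 0.622 in each. At an unadjusted p under 0.05, 1 gene was higher and 2 were lower in the first list, and 1 was higher and 1 lower in the second.

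**Figure D5:**
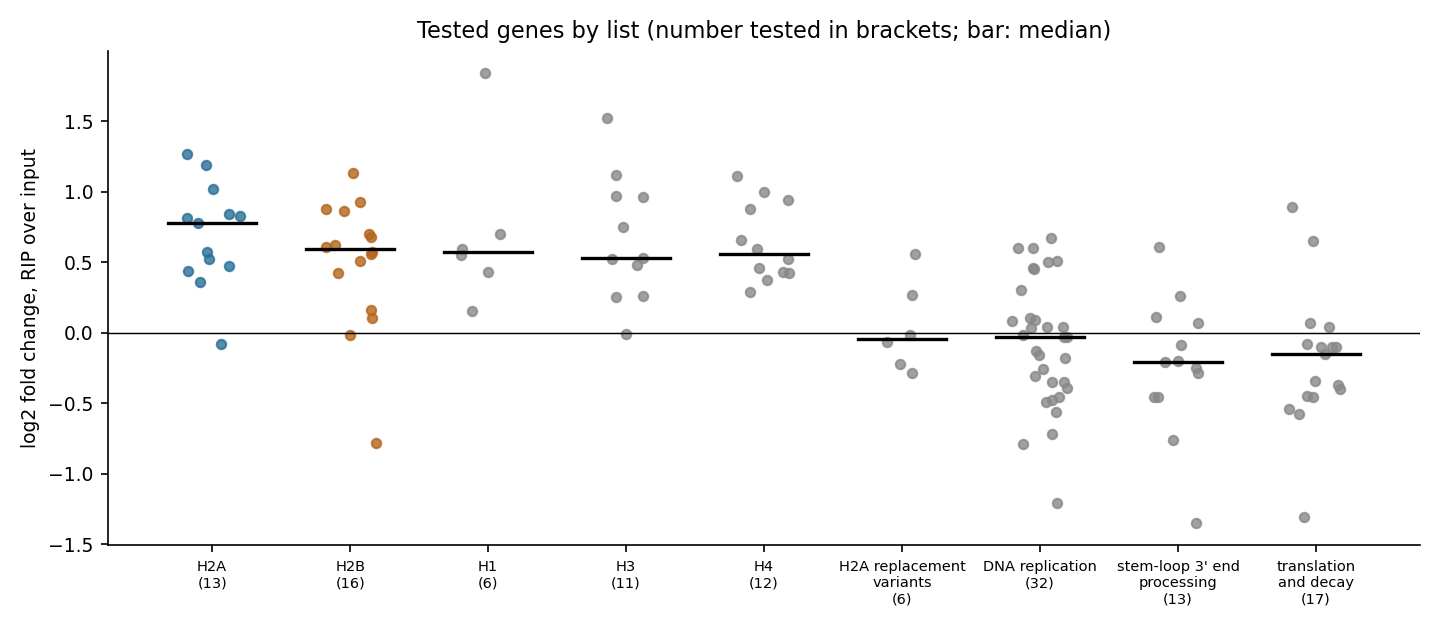
Log2 fold change of RIP over input for every tested gene of 9 lists, one point per gene, with the median as a bar and the number tested in brackets. The 5 groups of replication-dependent histones have medians between 0.53 and 0.78, and the other 4 lists have medians between -0.21 and -0.03.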

How the data were processed

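Ovarian cortex RNA of postnatal day 8 mice was measured in 4 input and 4 DCP1A RIP libraries. The authors deposited a table of estimated counts (expected counts) per gene, of which up to 1.85% per library were not whole (tolerance 1e-09). The submitters' processing notes name the build mm10. Which aligner, counter and annotation were used, and whether strand was, is not given in the sources used here. Reads of genes that overlap, on either strand, therefore cannot be told apart. Counts were rounded to whole numbers. All columns of the table belong to these 8 libraries, no pair of them is identical, and the floor (3 counts) covers counting error only.

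RIP and input were compared over 14667 genes with edgeR 4.0.16 in R 4.3.3, using TMM scaling and filterByExpr (minimum count 10, minimum total 15). The quasi-likelihood fit was robust, and p-values were adjusted by Benjamini and Hochberg's method and called under 0.05. Standard errors of fold changes were approximated from the F statistic. Alternatives were other scalings, DESeq2 1.42.0, limma 3.58.1 with voom and sample weights, other filters, blocks by replicate number or by numbers 1 and 2 against 3 and 4, subsets of numbers, each library left out, summed rows, and, for the sums, family rows left out. The edgeR step was tested on simulated data. Deviations from the group means correlated between same-numbered libraries with r = 0.249, 0.129, 0.230 and 0.155 for numbers 1 to 4 across genes. The RIP library with the highest correlation was RIP 1 for inputs 1 and 2, and RIP 4 for inputs 3 and 4. For 2 of the 4 inputs it thus carried another number, but always one of the same number set (1 and 2, or 3 and 4). The labels state no pairing, so the main fit and the standard errors of the sums left the numbers out. By edgeR the lowest adjusted p of a member was 0.622 in the main fit and 0.0747 with the number as a block.

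The members and lists were chosen with earlier results of these data known. Values in each library are given for the 6 H2A and 6 H2B rows with the highest mean, the 4 of each family with the lowest p, the testis-type rows and any member past the threshold. Of each other list of the pathway the 4 genes with the lowest p are named. Promoter sequences are those of RefSeq on GRCm38.p6, held for 33 of the 37 rows. Protein and stem-loop sequences were not used here.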

Additional observations from a re-analysis of the deposited data

How the results depend on the processing

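No H2A or H2B row passed edgeR, DESeq2 or limma voom under any of the 20 alternatives that kept the rows single, and the lowest adjusted p was 0.0584. In these alternatives the number of members with a fold change above 0 stayed within 1.5 times the main number, and without 1 library it was 27 to 28. The median log2 fold change of the members was 1.23 within numbers 3 and 4 and 0.38 to 0.94 without 1 library. The log2 difference of the sums was 0.49 to 0.95 for H2A and 0.50 to 1.01 for H2B without 1 library. Members higher at an unadjusted p under 0.05 numbered 8 with library size only (3.16% of all genes), 9 without a filter (4.70%), 16 with limma voom (4.34%), 13 with the replicate block (6.64%), 13 with blocked number groups (6.61%), 2 within numbers 1 and 2 (4.19%), 14 within numbers 3 and 4 (4.61%) and 1 to 15 without 1 library (1.44% to 5.04%). Genes called over the whole table numbered 13 higher and 43 lower with DESeq2, 13 and 42 with the replicate block, 12 and 43 with the blocked number groups, 3 and 24 within numbers 1 and 2, and 0 to 1 and 4 to 16 without 1 library. The replicate block changed no member's call. The log2 fold change of Hist1h2ba, -0.78 in the main result, was 0.75 with limma voom and 1.40 within numbers 3 and 4, and it was -1.17 to -0.03 without 1 library. The cause was not tested. The common biological coefficient of variation of 0.559 and the median standard error of 0.47 of the members limit what could be called.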
